A study of Mus musculus with 8 samples.

Results

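The right hippocampus of naive Cav3.2 knockout mice (KNR) was compared with that of naive wild-type mice (WNR) on one-colour oligonucleotide arrays. The comparison takes 4 of the 8 arrays of the series, namely the 2 arrays labelled as knockout, right hippocampi, naive and the 2 labelled as wild-type, right hippocampi, naive. All mice were males of 6 to 8 weeks, labelled as C57BL/6 (the study's methods name C57BL/6J for wild-type males) and caged singly, and each group's RNA came from the pooled right hippocampi of 3 of them. KNR mice were homozygous for a germline deletion in Cacna1h, the gene of Cav3.2, that had been bred onto the C57BL/6 background, and WNR mice carried the wild-type gene. The 4 other arrays come from mice of the same genotypes that had been trained by trace fear conditioning and tested for memory of the context (WTR, wild-type, and KTR, knockout). They share no array with the naive groups and serve here for the spread between arrays and as a separate measurement of the genotype difference. Whether duplicate arrays come from separate pools is not stated in the labels. Every p-value therefore rests on the spread between arrays, perhaps a technical spread, and none on that between mice.

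Cav3.2 is the pore-forming subunit of a T-type calcium channel, which opens at small depolarisations and can give rise to low-threshold spikes and burst firing. The hippocampus expresses it in pyramidal cells, granule cells and interneurons, and calcium entry through voltage-gated channels is one of the routes from activity to transcription in neurons. A germline deletion is present in every cell and at every age, and whole tissue was measured, so fewer cells of a type and less RNA per cell cannot be told apart.

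Values were array intensities that the authors had quantile normalized, on a linear scale. Lower values were raised to a floor of 100 before taking log2, and 15829 of 16383 probes with values lay above 100 on at least 2 of the 4 naive arrays and were tested. These probes named 10736 genes. Median intensity was 484.65 to 485.44 on the naive arrays, and 5.762% to 5.878% of values lay under 100. The Pearson correlation across probes, which are not independent replicates, was 0.9875 between the WNR arrays, 0.9889 between the KNR arrays and 0.967 to 0.9815 between arrays of different genotype. KNR replicate 1 stood farther from the wild-type arrays, with 773 and 494 probes over 2-fold apart, than KNR replicate 2, with 173 and 196, against 196 between the WNR duplicates and 98 between the KNR duplicates. At the top of the scale 6 probes, Mt1 among them, were saturated on all 4 arrays, and no difference is given for them. Markers of the tissue were present: all 10 measured markers of dentate granule cells and all 8 of CA1 pyramidal neurons had a mean intensity above 200.

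The limma fits, 2 in number, gave the same log2 differences and different errors. The first used the 4 naive arrays alone and left 2 residual degrees of freedom, and the second used all 8 arrays with a mean for each group and left 4. In the first fit 0 of 15829 probes (0.0%) passed an adjusted p of 0.05. Its smallest adjusted p was 0.0757, and 4323 probes (27.3%) had an unadjusted p under 0.05. In the second fit 755 probes (4.77%) were higher and 537 (3.39%) lower in KNR. By SAM, the permutation method named in the study's methods, run over the 6 label orders, 10 probes passed at q under 0.01 and over 2-fold, 2 higher and 8 lower. Below, "passed" refers to the fit of all 8 arrays, and each adjusted p is from it unless another fit is named.

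Cacna1h itself was lower in the knockout. Its probe read 2575 and 2385 in WNR against 1551 and 1489 in KNR. The KNR values lay below both WNR values and were far from the floor of 100. The log2 difference was -0.71 ± 0.16 (SE), with a 95% interval of -1.09 to -0.32, an adjusted p of 0.0471, and 0.0837 in the fit of the 4 naive arrays. In trained mice the same probe read 2084 and 2340 in WTR and 1036 and 1440 in KTR, and the genotype difference there did not differ detectably from that in naive mice (interaction 0.15 lower on the log2 scale, adjusted p = 0.703). The position of this probe in the gene, inside or outside the deletion, is not given in the sources used here, so the value checks the genotype labels only in part.

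The 1292 probes that passed were mostly small differences. The median size was 0.63 on the log2 scale in either direction and the smallest 0.39, and 50 of the higher and 94 of the lower probes differed by more than 2-fold, against 60 (0.379%) and 153 (0.967%) of all probes tested. In each of the 1292 probes the KNR arrays did not overlap the WNR arrays, as was the case for 31.0% of all probes with KNR higher and 27.8% with KNR lower. In the fit of the 4 naive arrays their adjusted p lay between 0.0757 and 0.115. Lower calls became more frequent with intensity, over 5 bins of probes from 2.46% of the dimmest to 5.75% of the brightest, and higher calls went from 3.38% to 5.78%, while the median difference of every bin stayed between -0.01 and 0.01. Leaving out any of the 4 naive arrays reduced the number passing from 1292 to between 1 and 3.

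Among the 10 largest differences upwards were genes of RNA processing, of the mitochondrial ribosome and of the synapse. Srrm2, a scaffold protein of nuclear speckles where splicing factors gather, read 373 and 444 in WNR and 1178 and 1227 in KNR, a 2.95-fold difference (adjusted p = 0.0116). Lsm2, a subunit of the ring that binds U6 small nuclear RNA, read 188 and 209 in WNR and 461 and 468 in KNR (2.34-fold, adjusted p = 0.0153). Cplx2, a complexin that clamps and promotes vesicle fusion, read 897 and 933 in WNR and 2135 and 2409 in KNR (2.48-fold, adjusted p = 0.0116). Genes were named among passing probes whose KNR and WNR arrays did not overlap, so the gap between the groups here follows from the choice. Mrpl54 and Mrpl37, proteins of the large subunit of the mitochondrial ribosome, read 411 and 446 against 1080 and 990, and 141 in both WNR arrays against 453 and 291. Micu3, a regulator of the mitochondrial calcium uniporter, read 222 and 297 in WNR and 729 and 598 in KNR (2.57-fold, adjusted p = 0.03). In Mrpl37 the KNR duplicates were themselves well apart, and its log2 difference was 1.37 with both and 1.05 without KNR replicate 1.

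The other large upward differences involved less familiar or dimmer genes. Bricd5, which encodes a BRICHOS domain protein, was at the floor in WNR, at 96.4 and 104, and read 328 and 317 in KNR, at least 3.16-fold higher (adjusted p = 0.0088). The gene 2310061I04Rik read 318 and 284 in KNR and lay just above the floor in WNR (2.97-fold, adjusted p = 0.0157). Npm3, a histone chaperone of the nucleolus, read 109 and 138 against 302 and 263, and Taok3, a kinase of stress signalling, 174 and 218 against 475 and 413. The gap between the groups in these 4 genes likewise follows from how they were chosen. The smallest p-values added Mt3, Mgp, Elob and Txndc12. Mt3, the metallothionein of brain, read 2706 and 2589 in WNR and 5703 and 5834 in KNR (2.18-fold, adjusted p = 0.0116). Txndc12, a thioredoxin-like protein of the endoplasmic reticulum, read 1274 and 1279 against 2507 and 2454 (1.94-fold, adjusted p = 0.0153).

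**Figure D1:**
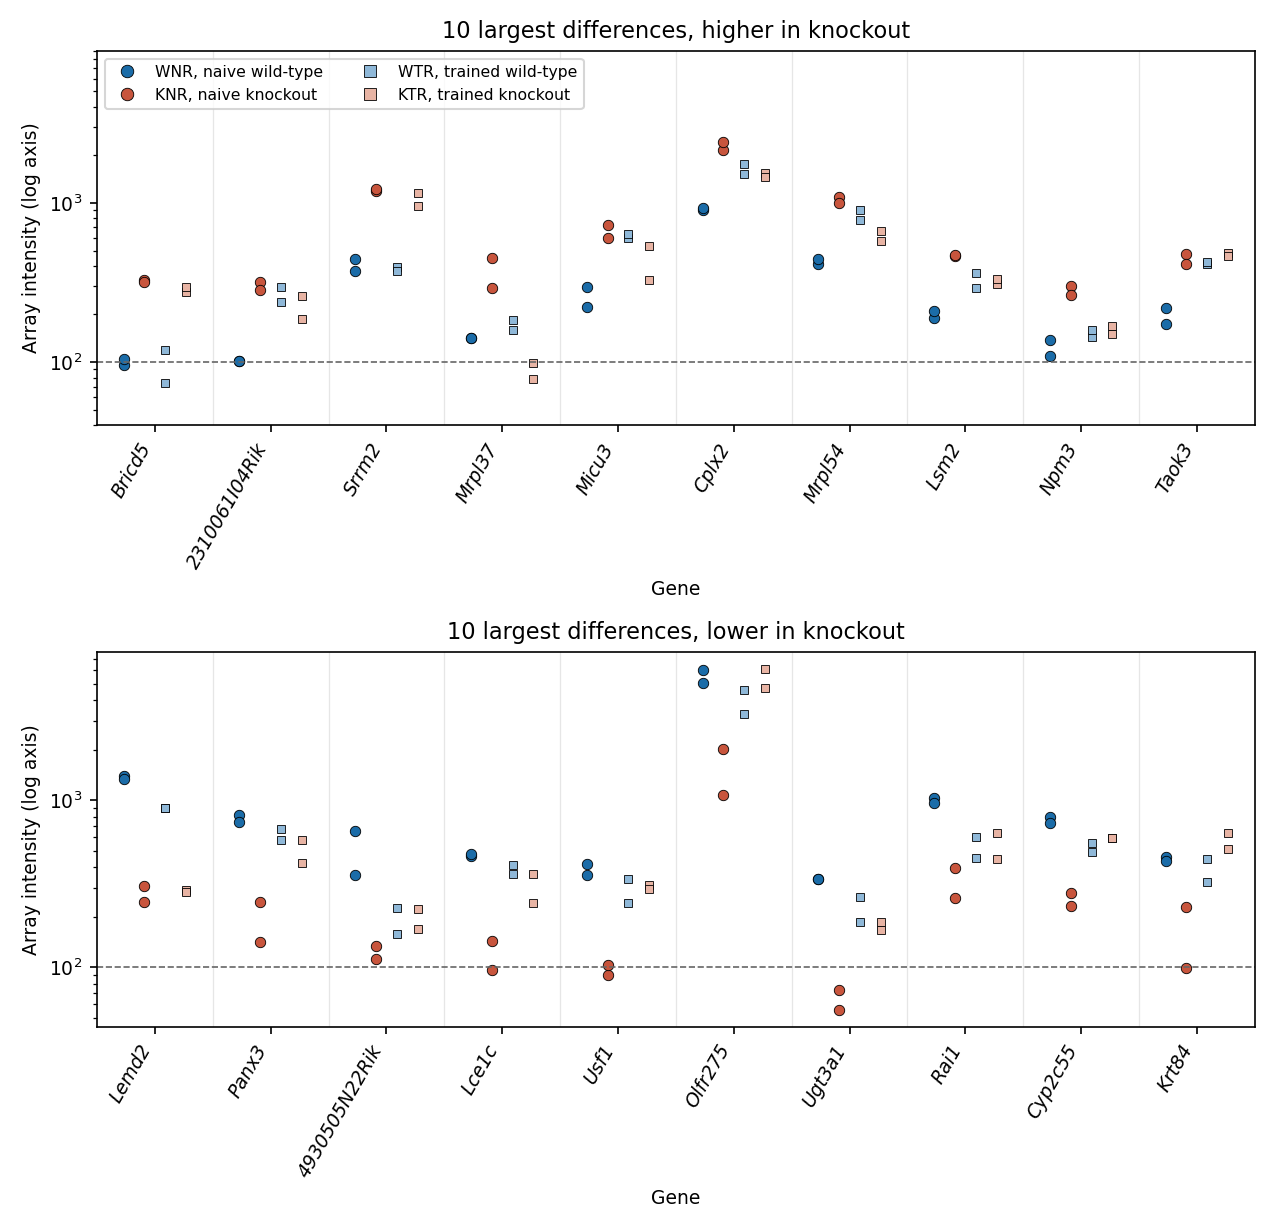
Array intensity on a log axis for the 10 genes with the largest difference in each direction, with a point for each array of the 4 groups and a dashed line at the floor of 100. In naive mice no KNR point overlaps a WNR point, which the choice of genes required. In trained mice the groups stay clearly apart for Lemd2, Srrm2 and Bricd5 (Lemd2 900 and 896 in WTR against 289 and 284 in KTR).

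The 10 largest differences downwards included the nuclear proteins Lemd2, Usf1 and Rai1, the pannexin Panx3 and the skin gene Lce1c. Lemd2, a LEM domain protein of the inner nuclear membrane, read 1392 and 1345 in WNR and 305 and 245 in KNR, 5.0-fold lower (log2 -2.32 ± 0.12 SE, adjusted p = 0.00375). Its KNR values lay far below both WNR values, but the gap between the groups in these 10 genes follows from how they were chosen. Panx3, a pannexin known from cartilage and skin, read 814 and 738 in WNR and 142 and 245 in KNR (4.16-fold lower, adjusted p = 0.0178). Lce1c, of the cornified envelope of skin, read 463 and 476 against 96.2 and 143, at least 3.92-fold lower (adjusted p = 0.0157). Lemd2, Panx3 and Lce1c are also on the list of genes that the study reported for this comparison from the same arrays, so their direction is not independent evidence. Usf1, a transcription factor that binds E-boxes, read 418 and 359 in WNR and fell to 89.6 and 104 in KNR, at least 3.8-fold (adjusted p = 0.0116). Rai1, a nuclear protein whose loss causes Smith-Magenis syndrome in people, read 1027 and 966 against 259 and 395 (3.11-fold, adjusted p = 0.0236).

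The remaining large downward differences were in a UGT and a cytochrome P450 enzyme, an odorant receptor, a hair keratin and a gene known only by its clone name. Ugt3a1, a glycosyltransferase, read 340 and 337 in WNR and 73.3 and 55.8 in KNR, both below the floor (at least 3.38-fold, adjusted p = 0.0132). Cyp2c55, a cytochrome P450, read 791 and 728 against 280 and 232 (2.98-fold, adjusted p = 0.0116). The duplicates lay close together in both groups for Cyp2c55 and in WNR for Ugt3a1. Both KNR values of Ugt3a1 were raised to the floor, which made them equal in the fit. Its p-value therefore leaves out the spread between the KNR arrays, and their agreement cannot be judged from it. The odorant receptor gene Olfr275 read 6073 and 5059 against 1081 and 2022, the hair keratin Krt84 459 and 436 against 99.4 and 230, and 4930505N22Rik 653 and 359 against 113 and 134. In Olfr275 and Krt84, as in Panx3, Lce1c, Rai1, Usf1 and 4930505N22Rik, the lower of the KNR values came from replicate 1. In Lemd2, Ugt3a1 and Cyp2c55 it came from replicate 2. Without replicate 1 the log2 difference went from -2.06 to -1.66 in Panx3, -1.97 to -1.71 in Lce1c and -1.64 to -1.33 in Rai1. It went from -2.32 to -2.48 in Lemd2 and from -1.58 to -1.71 in Cyp2c55. The log2 difference of Krt84, -1.56 and a bound, was -0.96 without that array. The smallest p-values added Mip, the aquaporin of lens fibres (585 and 509 against 210 and 203, 2.64-fold lower), Wfdc2, a secreted protein of epithelia (1095 and 889 against 305 and 376, 2.91-fold), Eme2, a subunit of a structure-specific endonuclease (217 and 254 against 113 and 93.1, at least 2.22-fold), and 9530002B09Rik (249 and 250 against 58.4 and 67.1, at least 2.5-fold).

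Of the 20 genes with the largest differences, 5 were measured by more than 1 probe, and each of these differences rested on 1 probe. The second probe of Lemd2 read 790 and 839 in WNR and 946 and 790 in KNR (log2 0.09, adjusted p = 0.704). The second probe of Usf1 read 193 and 190 against 208 and 194, and that of Rai1 327 and 362 against 368 and 321. The second probe of Taok3 read 1182 and 731 against 603 and 1012 (log2 -0.25), and the other probes of Srrm2 stood at -0.48 (adjusted p = 0.106) and 0.32 (0.473) on the log2 scale. None of these other probes passed, and the transcripts that each probe reads are not given in the sources used here. Of all genes, 1682 had at least 2 tested probes and 220 of them a probe that passed. Of the 265 other probes of those genes 189 (71.3%) had the same sign and 22 (8.3%) passed in the same direction, against 4.77% of all probes passing as higher and 3.39% as lower (8.16% in either direction).

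In 21 genes at least 2 probes passed in the same direction, 14 higher and 7 lower, and in 0 genes did probes pass in opposite directions. Elob, elongin B, an adaptor of ubiquitin ligases, was higher by 1.03 and 0.88 on the log2 scale at its 2 passing probes, which read 11551 and 12839 against 26263 and 23506 and 18707 and 20570 against 36171 in both KNR arrays. Its other probe had 0.36 (adjusted p = 0.0709). Prkce, the epsilon isoform of protein kinase C, had differences of 0.96 and 0.78 at its probes, Ppp1r11, an inhibitor of protein phosphatase 1, 0.80 and 0.61, Ssr4, of the translocon of the endoplasmic reticulum, 0.77 and 0.59, and Slc5a5, the sodium iodide symporter, 0.83 and 0.56. Rpl23, of the large cytosolic ribosomal subunit, passed at all 3 of its probes (0.95, 0.68 and 0.52). Acta2, the actin of smooth muscle, was higher at both probes (0.92 and 0.59), and Pecam1, an adhesion molecule of endothelium, lower at both (-0.84 and -0.72). Hsp90ab1, the constitutive cytosolic chaperone, was lower by -0.50 and -0.45 at its passing probes and stood at -0.32 at its other probe (adjusted p = 0.138).

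Genes that build mitochondria lay to the upper side. Of all 10736 genes, taken with 1 probe each, 473 (4.41%) passed as higher and 399 (3.72%) as lower, the median difference was -0.004 and 49.6% were positive. Of the 31 genes of respiratory complex I, which takes electrons from NADH, 29 were positive, with a median of 0.41, and 6 passed as higher and 1 as lower. Of the 24 genes of complexes II to IV 3 passed as higher and 0 as lower (median 0.33), and of the 10 genes of ATP synthase 1 passed as higher (median 0.53). Of the 63 nuclear genes of the mitochondrial ribosome 57 were positive, with a median of 0.31, and 11 passed as higher and 0 as lower. Ndufs8, an iron-sulphur subunit of complex I, read 2403 and 2420 in WNR and 4157 and 3851 in KNR (log2 0.73 ± 0.11 SE, adjusted p = 0.0236). Cox6a2, a subunit of cytochrome oxidase known from muscle, read 606 and 716 against 1212 and 1340 (log2 0.95), and Uqcr11, of complex III, 4577 and 5080 against 7090 and 6941 (log2 0.54). Mrps16, of the small mitochondrial ribosomal subunit, read 1010 and 1226 against 1889 and 1864 (log2 0.75), and Mrpl52, of the large subunit, 1657 and 1723 against 2463 and 2590 (log2 0.58). The exception among the genes that passed was Ndufb10, an accessory subunit of complex I, at 1695 and 1636 against 1188 and 1089 (log2 -0.55, adjusted p = 0.0348). The largest value of the mitochondrial ribosome, 2.76 for Mrps6, did not pass (adjusted p = 0.156) and came from 1 WNR array at 4.18 beside 1908 in its duplicate.

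The cytosolic ribosome and the proteasome had smaller medians on the same side. Of 21 genes of the cytosolic ribosome 4 passed as higher (Rpl14, Rps4l, Rpl23 and Rps3, log2 1.18 to 0.45) and 0 as lower, with a median of 0.28 and 17 positive. Of 32 proteasome genes 2 passed as higher, the core subunits Psma4 (0.56) and Psmb9 (0.55), with a median of 0.27 and 29 positive. Among 59 spliceosome genes 3 passed as higher (Srrm2, Lsm2 and Sf3b5) and 1 as lower, Sf3b1, the branch-site factor (1318 and 1402 against 901 and 883, log2 -0.61), and the median was 0.06. These medians kept their sign when any of the 4 arrays was left out, and for complex I the median then lay between 0.37 and 0.44.

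Relative to the mean of the 8 arrays, the WNR arrays had the lowest medians in complex I, complexes II to IV and both ribosomes, whereas in ATP synthase (-0.37), the proteasome (-0.16) and the spliceosome (-0.10) KTR replicate 2 was the lowest array. The complex I genes had medians of -0.30 and -0.25 in WNR and 0.11 and 0.09 in KNR, and in trained mice 0.16 and 0.13 (WTR) and 0.04 and 0.06 (KTR). The mitochondrial ribosome had -0.23 and -0.18 in WNR and lay between -0.03 and 0.16 on the other 6 arrays. The genes of these lists are short, with a median genomic length of 7690 bases for complex I and 7143 for the mitochondrial ribosome, and the difference between the groups also varied with gene length. With the probes in 5 equal bins by length of the annotated gene, the median difference went from 0.12 in the shortest bin through 0.06, 0.01 and -0.07 to -0.08 in the longest, higher calls from 9.08% to 2.49% and lower calls from 2.88% to 5.53%. In the shortest bin the WNR arrays stood at -0.09 and -0.11 and in the longest at 0.07 and 0.11. The part of gene length in the values of these lists was not tested.

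**Figure D2:**
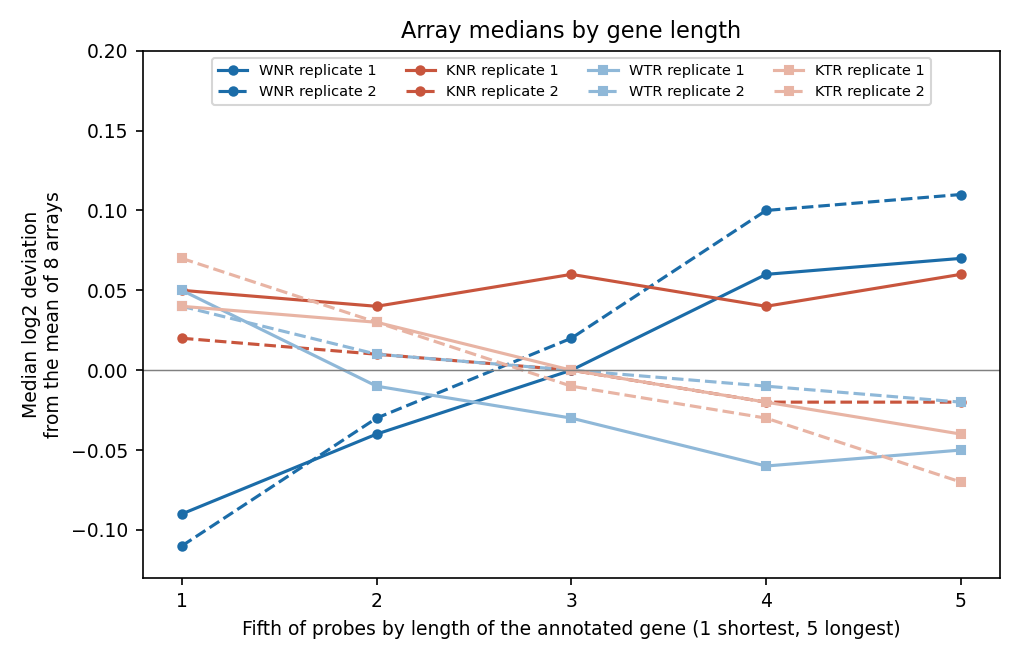
Median log2 deviation of each array from the mean of the 8 arrays, over 5 bins of the probes by length of the annotated gene. The WNR arrays run from -0.09 and -0.11 in the shortest bin to 0.07 and 0.11 in the longest, while the other arrays run level or downwards.

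The promoters of these mitochondrial genes were read because the genes lay to the same side. In RefSeq promoters of build GRCm38.p6, 250 bases before to 50 after a start, 8688 of the 10736 genes were matched, and 4 motifs were searched on both strands. The core of the binding site of ETS factors, CCGGAAG or its reverse complement CTTCCGG, was in 18.0% of all these promoters, in 20 of 55 (36.4%) of the mitochondrial ribosome, in 7 of 18 (38.9%) of complexes II to IV, in 6 of 17 (35.3%) of the cytosolic ribosome, in 10 of 26 (38.5%) of the proteasome and in 3 of 28 (10.7%) of complex I. It was in 73 of 387 (18.9%) of the promoters of all genes that passed as higher, close to the share of all genes, and in 41 of 321 (12.8%) of those that passed as lower. The NRF-1 core motif was in 10.3% of all promoters, in 9 of 55 (16.4%) of the mitochondrial ribosome, in 5 of 28 (17.9%) of complex I, in 4 of 18 (22.2%) of complexes II to IV and in 0 of 17 of the cytosolic ribosome. TATAAA was in 872 of all 8688 promoters and in 4 of 55 (7.27%) of the mitochondrial ribosome, and the E-box CACGTG in 995 of all 8688 and in 4 of 55 (7.27%). Shown, for the place of the ETS motif in promoters of genes that passed as higher, are the stretches around it in 2 genes of the mitochondrial ribosome and 1 of complex III, with the motif in capitals and each sequence on the strand of its gene. They lie at chr14:54426822-54426908 (Mrpl52, plus strand), chr14:20393518-20393604 (Mrps16, minus strand) and chr10:80406841-80406927 (Uqcr11, minus strand).
Mrpl52: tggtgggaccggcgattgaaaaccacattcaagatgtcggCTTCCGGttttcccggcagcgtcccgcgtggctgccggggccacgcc
Mrps16: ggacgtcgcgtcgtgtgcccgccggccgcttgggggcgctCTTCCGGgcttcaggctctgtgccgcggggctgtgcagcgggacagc
Uqcr11: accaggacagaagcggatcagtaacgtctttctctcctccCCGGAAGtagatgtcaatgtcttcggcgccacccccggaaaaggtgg
The motif begins 47 bases before the start of Mrpl52, 74 before that of Mrps16 and 66 before that of Uqcr11. A match describes the letters and says nothing of a factor at the site.

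Npy, Cort, Cck and Tac1, neuropeptide genes that hippocampal interneurons express, were higher in naive knockout mice. Of the 16 neuropeptide genes measured on the list used here, these 4 passed as higher and 0 as lower. Their median was 0.23 and 13 were positive. Of all genes 4.41% passed as higher and 3.72% as lower. A probe of Hcrt, another neuropeptide gene, passed as lower (log2 -0.67) and is not among the values of this list. The count of 0 therefore holds for the list only. Npy, neuropeptide Y, read 2459 and 2502 in WNR and 4508 and 4163 in KNR (1.75-fold, log2 0.80 ± 0.10 SE, adjusted p = 0.0174). Cort, cortistatin, read 1314 and 1188 against 2123 and 2033 (1.66-fold, adjusted p = 0.0216), Cck, cholecystokinin, 3033 and 3159 against 4925 and 4720 (1.56-fold, adjusted p = 0.023), and Tac1, the precursor of substance P, 413 and 443 against 653 and 603 (1.47-fold, adjusted p = 0.0465). Somatostatin, Sst, read 25637 and 25771 against 31875 and 30418 (log2 0.28, adjusted p = 0.105), Penk, proenkephalin, had 0.30 (adjusted p = 0.121), Vip 0.41 (adjusted p = 0.136), and Bdnf, a growth factor, 0.07 (adjusted p = 0.819). The interneuron markers that are not peptides did not pass and went both ways: Gad2, which makes GABA, stood at -0.39 (adjusted p = 0.0701), Slc32a1, its vesicular transporter, at 0.45 (0.464), and Pvalb at 0.34 (0.144). WTR arrays, of trained wild-type mice, read 3548 and 3619 for Npy and 1987 and 1979 for Cort, between the naive groups, and 3767 and 3738 for Cck.

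**Figure D3:**
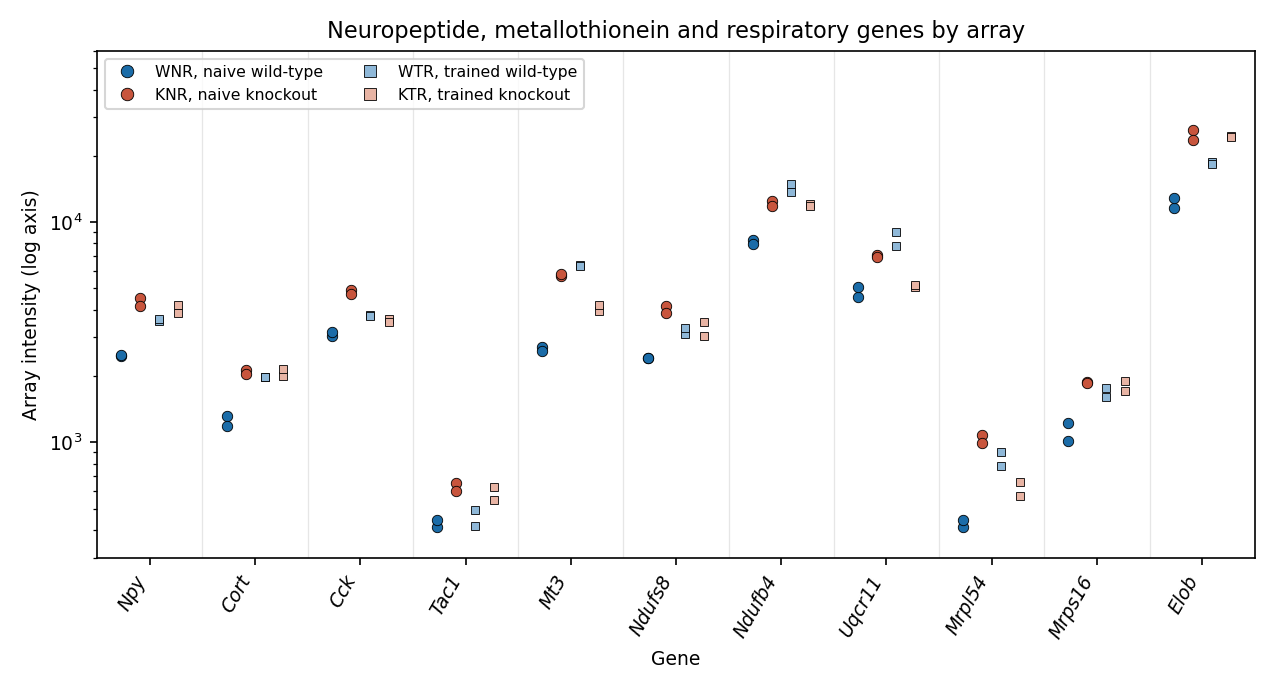
Array intensity on a log axis for 11 genes of neuropeptides, metallothionein, the respiratory chain, the mitochondrial ribosome and elongin B (its probe of smallest p), with a point for each array. The WNR points are the lowest or among the lowest of each gene (Npy 2459 and 2502 in WNR, 4508 and 4163 in KNR, 3885 and 4197 in KTR).

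Metallothionein genes were unequal. Mt3 passed, as given above, and Mt2, the stress-induced form, read 28856 and 31742 in WNR and 37230 and 41674 in KNR (log2 0.38, adjusted p = 0.121). Mt4 read 369 and 375 against 394 and 409. With genes that respond to glucocorticoids they formed a list of 16 measured genes, of which 3 passed as higher and 0 as lower (median 0.31): Mt3, Sult1a1, a sulphotransferase (822 and 762 against 1400 and 1258, log2 0.75, adjusted p = 0.0223), and Plin4, a coat protein of lipid droplets (77.9 and 100 against 199 and 164, at least 1.81-fold, adjusted p = 0.0236). Of 21 genes induced by neuronal activity 1 passed, Npas4, a transcription factor of inhibitory synapse formation, higher at 280 and 290 against 459 and 425 (log2 0.63, adjusted p = 0.0304). Fos stood at -0.40 (adjusted p = 0.0799), Arc at -0.13 (0.53) and Egr1 at 0.04 (0.906), so the best known of these genes did not pass.

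In the other channel and receptor lists described here only Kcnip2, Grin3a and Gabra2 passed, and with 4.41% of all genes passing as higher and 3.72% as lower, nothing is read from such small counts. None of the 5 other pore genes of voltage-gated calcium channels that were measured passed. Cacna1g, the other T-type pore measured, read 537 and 520 in WNR and 482 and 454 in KNR (log2 -0.18, adjusted p = 0.439), and Cacna1a, the P/Q-type pore, 242 and 246 against 339 and 332 (log2 0.46, adjusted p = 0.056). Cacna1c, an L-type pore, stood at -0.09 (adjusted p = 0.723) and the N-type pore Cacna1b at -0.16 at both of its probes. Of 12 auxiliary subunits 0 passed, with Cacna2d3 at -0.32 (adjusted p = 0.0814) and Cacnb4 at -0.57 and -0.31 at its probes (adjusted p = 0.11 and 0.141). Of 28 voltage-gated potassium channel genes 1 passed, Kcnip2, a subunit of A-type channels (304 and 316 against 681 and 482, log2 0.89 ± 0.18 SE, adjusted p = 0.0381). Its partner Kcnd2 stood at -0.34 and -0.33 at its probes (adjusted p = 0.387 and 0.148). Of 17 glutamate receptor genes 1 passed, Grin3a, an NMDA receptor subunit, lower at 3508 and 3996 against 2680 and 2491 (log2 -0.54, adjusted p = 0.0422). Of 10 GABA receptor genes 1 passed, Gabra2, higher at 137 and 149 against 251 and 237 (log2 0.77, adjusted p = 0.0303). Gria2, of AMPA receptors, read 21722 and 19265 against 20385 and 21007.

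Of 39 measured genes that handle calcium inside the cell, 5 (12.8%) passed as higher, against 4.41% of all genes. As lower 1 (2.56%) passed, against 3.72% of all genes, and the median was 0.06. Beside Micu3 the higher ones were Cabp1, which binds and modulates calcium channels (593 and 551 against 1090 and 984, log2 0.86 ± 0.11 SE, adjusted p = 0.0206), Ppp3r1, the regulatory subunit of calcineurin (258 and 325 against 540 and 438, log2 0.75, adjusted p = 0.0395), Hpcal1, a neuronal calcium sensor (542 and 568 against 968 and 801, log2 0.67, adjusted p = 0.0356), and Cabp7 (218 and 226 against 347 and 306, log2 0.55, adjusted p = 0.0382). The lower one was Camk2d, a calmodulin-dependent kinase (436 and 485 against 294 and 303, log2 -0.62, adjusted p = 0.028). Ryr2, the ryanodine receptor that releases calcium from the endoplasmic reticulum, read 5218 and 5129 against 3808 and 3278 at its brighter probe and did not pass (log2 -0.55, adjusted p = 0.063). Micu2 stood at -0.25 (adjusted p = 0.17).

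Of 35 genes of vesicle release 2 (5.71%) passed as higher and 3 (8.57%) as lower, against 4.41% and 3.72% of all genes. Their median was -0.13, and nothing is read from such small counts. The higher ones were Cplx2 and Rab3c, a GTPase of vesicles (825 and 903 against 1325 and 1245, log2 0.57, adjusted p = 0.0493). The lower ones were Sv2b, a vesicle glycoprotein (31875 and 32555 against 19407 and 19556, log2 -0.73, adjusted p = 0.024), Unc13b, a priming factor (1783 and 1951 against 1372 and 1335, log2 -0.46, adjusted p = 0.0445), and Syt1, the calcium sensor of fast release (42697 and 43008 against 31742 and 32032, log2 -0.43, adjusted p = 0.0419). The complexin Cplx1 read 22555 and 22495 against 21205 and 19842 (log2 -0.14, adjusted p = 0.4). WTR arrays read 20638 and 17139 for Sv2b, near the KNR values, and 36171 and 38184 for Syt1, between the groups. Of 36 microtubule and dynein genes 3 (8.33%) passed as higher and 1 (2.78%) as lower, against 4.41% and 3.72% of all genes. Highest was Dynlt1 (719 and 565 against 1215 and 1187, log2 0.91). Map1lc3a, a protein of autophagosomes and microtubules (5152 and 5146 against 9517 and 9122, log2 0.86), and Mapt, tau (6183 and 5418 against 9378 and 8610, log2 0.63), were also higher. The lower one was Dync1i1, a dynein intermediate chain (5666 and 5261 against 4091 and 3965, log2 -0.44).

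**Figure D4:**
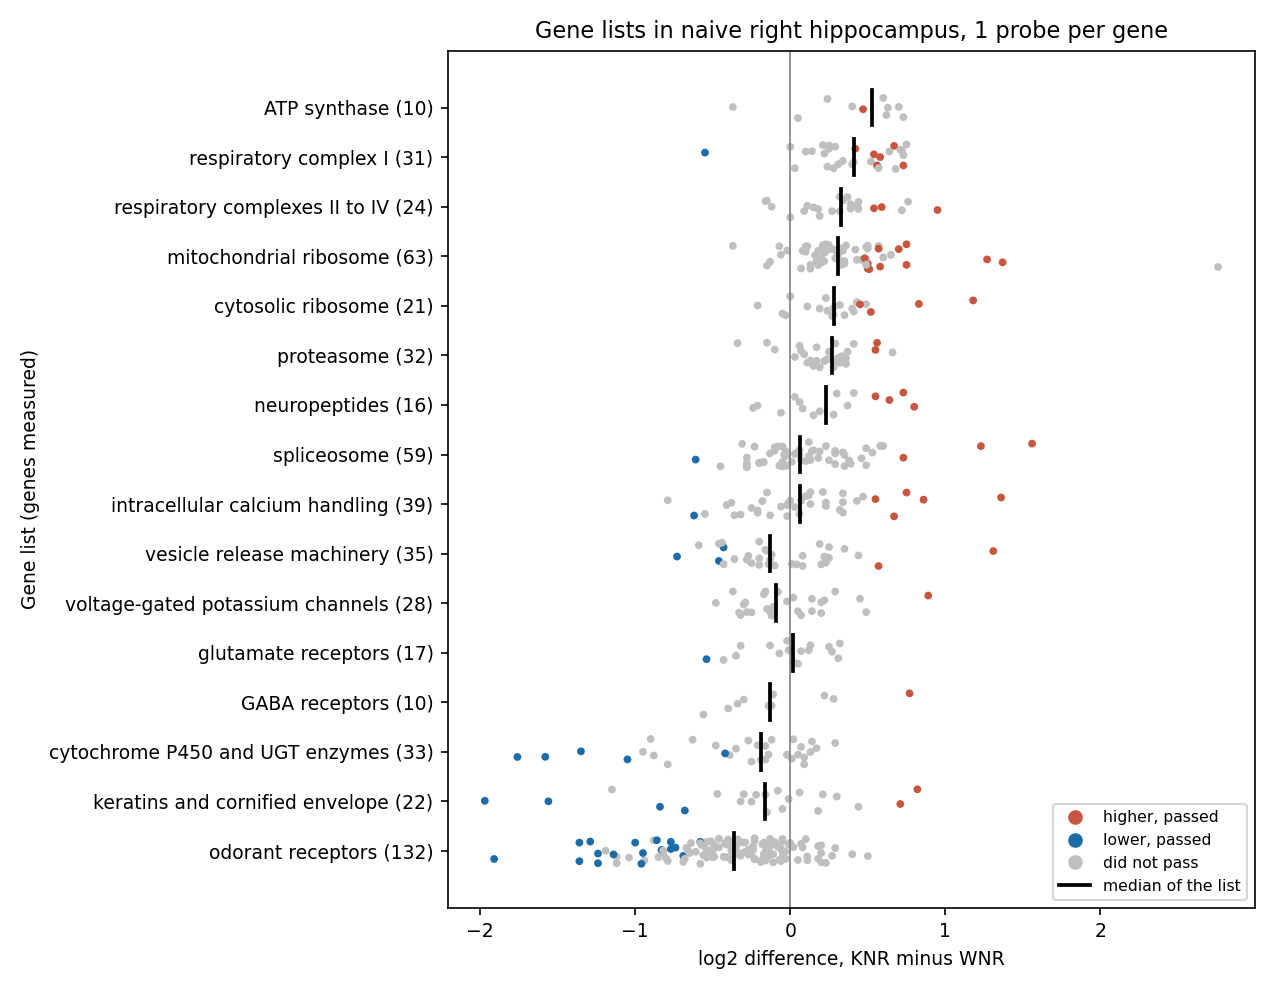
The log2 difference KNR minus WNR of each measured gene of 16 lists, 1 point per gene, coloured by whether it passed, with a bar at the median of the list. The medians run from 0.53 for ATP synthase and 0.41 for complex I to -0.36 for odorant receptors.

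Members of the odorant receptor list passed as lower at 12.9%, of the cytochrome P450 and UGT list at 15.2% and of the keratin and cornified envelope list at 18.2%, against 3.72% of all genes. Of 132 odorant receptor genes 114 were negative, with a median of -0.36, and 17 passed as lower and 0 as higher. Olfr559 read 1005 and 960 in WNR and 311 and 470 in KNR (log2 -1.36, adjusted p = 0.0367), Olfr657 435 and 525 against 158 and 218 (log2 -1.36, adjusted p = 0.0267), and Olfr677 247 and 262 against 75.7 and 108 (at least 2.45-fold lower, adjusted p = 0.0274). Only 55 of the 132 had a mean intensity above 200. Of 33 cytochrome P450 and UGT genes 5 passed as lower and 0 as higher (median -0.19), and beside Cyp2c55 and Ugt3a1 these were Cyp2b9 (837 and 680 against 218 and 399), Cyp4v3 (1054 and 1022 against 770 and 779) and Cyp7a1, the rate-limiting enzyme of bile acid synthesis (216 and 220 against 87.5 and 111). Of 22 genes of keratins and the cornified envelope 4 passed as lower and 2 as higher, one of them Krt10, a keratin of upper epidermis (659 and 697 against 1225 and 1165, log2 0.82). The odorant receptor list varied between duplicates, with array medians of 0.23 and -0.12 in WNR and -0.51 and -0.17 in KNR, and in trained mice of 0.20 and 0.01 (WTR) and 0.02 and 0.40 (KTR). The cytochrome P450 and UGT list had array medians of 0.16 and 0.09 in WNR and -0.41 and -0.06 in KNR. The keratin and cornified envelope list had 0.03 and -0.12 in WNR and -0.44 and -0.09 in KNR. KNR replicate 1 was the lowest array in each of these lists. The median difference of the odorant receptors, -0.36, became -0.24 without it, -0.23 without WNR replicate 1, -0.57 without WNR replicate 2 and -0.05 with a floor of 200. Whether these probes read RNA of the named genes was not tested.

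Markers of cell types gave no shift shared by all types. The counts below stand beside 4.41% of all genes passing as higher and 3.72% as lower. Of 15 microglial markers 2 passed as higher, C1qc, of complement (1502 and 1435 against 2441 and 2202, log2 0.66), and Ly86 (534 and 564 against 850 and 816, log2 0.60), while the list median was 0.04 and its summed intensity 12412 and 13280 in WNR and 14517 and 13436 in KNR. Of 13 markers of meningeal fibroblasts 10 were positive, with a median of 0.32. Among them 5 (38.5%) passed as higher, Mgp, Col1a2, Col3a1, Fmod and Igf2 (log2 0.94 to 0.47, a bound for Col3a1). As lower 1 passed, Ogn (702 and 716 against 476 and 408, log2 -0.69). The summed intensity of the list was 15878 and 14949 in WNR and 19878 and 21107 in KNR. Of 10 choroid plexus markers 0 passed as higher and 2 as lower, Cldn2, a tight junction protein (407 and 355 against 170 and 214, log2 -0.99 at 1 of its 2 probes), and Kl, klotho (901 and 1050 against 695 and 668, log2 -0.51). Of the 10 choroid plexus markers 7 were negative and 3 positive, with a median of -0.3. Transthyretin, Ttr, the most abundant of these markers and one of the positive ones, read 16383 and 15543 against 19518 and 20040 (log2 0.31, adjusted p = 0.177). Choroid plexus RNA was thus present on all 4 arrays. Pecam1 passed as lower among 10 endothelial markers, whose median was 0.16. Of 10 markers of dentate granule cells 8 were negative and 1 passed, Calb1, calbindin (944 and 991 against 706 and 531, log2 -0.66, adjusted p = 0.0423), and Prox1, which specifies these cells, stood at -0.56 (571 and 564 against 405 and 366, adjusted p = 0.0513). Of 10 markers of CA2 and CA3 neurons 2 passed as higher, Nnat, a small membrane proteolipid, and Pcp4, a regulator of calmodulin (log2 0.68 and 0.64). Of 14 astrocyte markers S100b passed as higher (3980 and 3563 against 5467 and 5604) and the transcription factor Sox9 as lower (4997 and 5465 against 3423 and 3963), Gfap stood at 0.39 at both of its probes, and 0 of 9 oligodendrocyte markers passed. The part of a change in cell makeup in the results above was not tested.

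The genotype difference of naive mice was then set beside that of trained mice, measured on separate arrays. Over all tested probes the naive and trained differences had a Pearson correlation of -0.11. Of the 755 probes higher in KNR 357 (47.3%) were also positive in trained mice, against 52.7% of all probes. Of the 755, 19 (2.52%) passed there as higher and 17 as lower, against 0.72% and 1.26% of all probes. Of the 537 lower probes 239 (44.5%) were also negative in trained mice. Of the 537, 12 (2.23%) passed there as lower and 3 as higher, against 1.26% and 0.72% of all probes. The fit shares the error of each probe between both comparisons. The interaction passed at 857 probes (5.41%) and at 277 of the higher and 188 of the lower probes, and at 16 of the 20 genes with the largest differences in naive mice. The interaction contains the naive difference by which these probes were chosen, so these counts are a description and are favoured by the choice. Of these 20 only Lemd2, Srrm2 and Bricd5 also passed between KTR and WTR, with log2 differences of -1.65, 1.45 and 1.39 in trained mice. Eme2, named for its small p, passed there too, at 222 and 249 in WTR against 69.2 and 65.8 in KTR. Among the other genes named above, Ndufb10, Ogn, Cabp7 and Dynlt1 also passed there in the same direction. Their log2 differences in trained mice were -1.92, -1.28, 1.25 and 1.04. Mt3 passed in the opposite direction, at 6403 and 6304 in WTR against 3964 and 4224 in KTR (log2 -0.63, adjusted p = 0.0371). Mrpl37 read 185 and 160 in WTR and 78 and 99.2 in KTR (adjusted p = 0.0819).

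**Figure D5:**
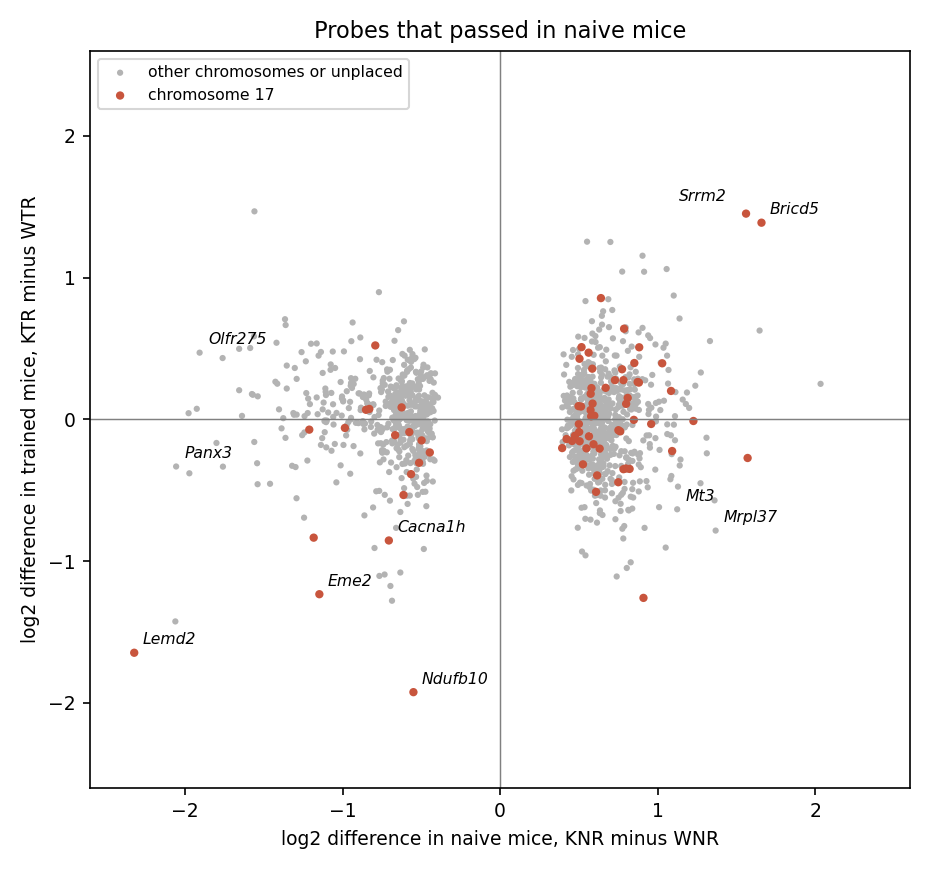
Log2 genotype difference in trained mice (vertical axis) against that in naive mice (horizontal axis) for the 1292 probes that passed in naive mice, with probes of genes on chromosome 17 in red. Lemd2 lies at -2.32 and -1.65, Srrm2 at 1.56 and 1.45 and Bricd5 at 1.66 and 1.39, while most points scatter around 0 on the vertical axis.

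Lemd2, Srrm2, Bricd5, Eme2 and Cacna1h all lie on chromosome 17. Of the other genes named above, so do Lsm2, 2310061I04Rik, Elob, Prkce, Ppp1r11, Hsp90ab1, Psmb9, Plin4 and Ndufb10. Of the 549 higher and 437 lower probes with 1 symbol, 54 and 18 were on this chromosome. Of the probes that passed in the same direction in naive and in trained mice, 20 carried 1 gene symbol and 6 of these were on chromosome 17, which holds 586 (4.63%) of the 12659 tested probes with a chromosome. Of 127 genes within 200 annotated genes of Cacna1h on either side 20 (15.7%) were higher and 6 (4.72%) lower in KNR, against 4.16% and 3.74% of 10215 genes on other chromosomes.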

How the data were processed

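Intensity values of 29922 probes per array were deposited; the authors had hybridised Cy5-labelled RNA to Phalanx OneArray chips and quantile normalized the intensities, and 13539 probes were empty on all arrays. One symbol was given to 13072 probes and none to 3311 by the platform annotation, and 2101 were updated and 26 were absent from RefSeq (GRCm38.p6). Precision is limited by the number of arrays. A floor of 100 was applied, followed by log2; the study set this floor before normalization, which was tried as an alternative. Probes above 100 on at least 2 of the 4 naive arrays were tested with limma 3.58.1 in R 4.3.3 (two-sided, Benjamini-Hochberg at 0.05 over all probes), and tables were made in Python 3.11.15 with pandas 2.3.3. SAM was written anew, with the median of false calls over 6 label orders. The scripts were tested on simulated data.

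Each fold is 2 to the power of the log2 difference, and "at least" marks a group at it. Where a group lies at the floor the log2 difference is a bound too. Gene lists took the probe of highest mean for each gene. Genes were named among passing probes with 1 symbol, KNR and WNR arrays that did not overlap and, in the higher group, values above 200 on both arrays: the 10 largest differences and the 8 smallest p-values in each direction, the 8 largest among genes with several agreeing probes, Cacna1h, the genes the study listed for this comparison as far as reported here, up to 4 passing members of each list, and members given for their role or as a whole family. Other members named from the lists (Ndufb10, Mrpl52, Mrps6, Cabp7, Camk2d, Syt1, Cyp4v3, Fmod, Igf2) were chosen after their values were seen. The same holds for the Hcrt probe, which is not among the values of the neuropeptide list. Members and lists were chosen with earlier results of these data known. Across probes, the difference between the KNR duplicates was negatively correlated with that between the WNR duplicates (-0.37, replicate 1 minus replicate 2). No pairing was used in the main fits. The value covers the naive arrays only and does not show that duplicates vary independently. Counts with a block are given below.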

Additional observations from a re-analysis of the deposited data

Results flagged for a closer look

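For 55 of the 189 probes named by the rules, the genotype difference in trained mice differed from that in naive mice by the interaction test (8-array fit, adjusted p under 0.05), and this flagged them. Most had been named for their difference in naive mice, which the interaction contains, so their number is favoured by the choice and is not set against that of all probes. Each value below is the difference in trained minus that in naive mice, log2. Negative values, for probes that were higher in KNR, were Mrpl37 -2.15, Micu3 -1.93, 2310061I04Rik -1.84, Mt3 -1.76, Mrpl54 -1.72, Cplx2 -1.44, Kcnip2 -1.32, Sf3b5 -1.31, Lsm2 -1.24, Uqcr11 -1.24, Hpcal1 -1.22, Ly86 -1.14, Prkce -1.13 at 1 of its probes, Npm3 -1.12, Krt10 -1.10, Rpl14 -1.07, Rps4l -1.07, Taok3 -1.0, Mgp -0.91, Pcp4 -0.89, Ndufb4 -0.84, Atp5mpl -0.83, Ndufa4 -0.82, Hras -0.79, Sult1a1 -0.77, Ube2s -0.76, Cabp1 -0.72, Cck -0.71, Txndc12 -0.71 and Cort -0.66. With more than 1 such probe there were Acta2 (-1.68 and -0.91), Ppp1r11 (-1.14 and -1.12) and Rpl23 (-1.15 and -0.80).

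Positive values, for probes that were lower in KNR or, for Kcnd2, that did not pass there, were Olfr275 2.38, Olfr657 2.07, Olfr559 2.03, 4930505N22Rik 2.02, Usf1 2.0, Cyp2c55 1.75, Panx3 1.72, Rai1 1.66, Lce1c 1.59, Mip 1.47, Ugt3a1 1.42, Wfdc2 1.23, Dnajb8 0.99, 9530002B09Rik 0.99, Kcnd2 0.98 at 1 of its probes, Sprr2d 0.94, Sv2b 0.82, Sox9 0.79 and Dync1i1 0.76. The number of probes at which the interaction passed fell to between 1 and 113 when an array was left out.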

How the results depend on the processing

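In the fit of the 4 naive arrays 0 probes passed, and 210 passed with a floor of 200, 1337 with limma's trend, 10 by SAM at q under 0.01 and over 2-fold and 15 at q under 0.05. In the fit of 8 arrays 1292 passed, and 2020 with limma's trend and between 1 and 844 when an array was left out, with 1 to 3 without a KNR or WNR array, 222 without a WTR array and 844 without a KTR array. Without KNR replicate 1 and KTR replicate 2 together, chosen after seeing the data, 0 passed. The interaction passed at 857 probes, at 1556 with limma's trend, at 1 to 113 with an array left out and at 0 without those 2 arrays. With the replicate number as a block the 8-array fit called 67 probes and the interaction 1; with the numbers of the KNR arrays crossed, also chosen after seeing the data, the counts were 389 and 1, and 1230 in the 4-array fit. Cacna1h kept -0.71 but did not pass with a floor of 50 or 200, with no filter, or with either block, stood at -0.76 to -0.65 with an array left out and at -0.74 without KNR replicate 1 and KTR replicate 2. The second probe of Lemd2, at 0.09, lay between -0.04 and 0.22 with an array left out, and turned to -0.04 without KNR replicate 1, alone or with KTR replicate 2. With a floor of 200, 1199 of the 1292 probes kept a difference of the same sign, and a filter for all 4 naive arrays left 1186 of them to be tested. The cause of these changes was not tested. Signal near the floor limits the dim genes. Among those with bounds only are Bricd5, Usf1, Lce1c, Ugt3a1, Eme2, Krt84, 9530002B09Rik, Plin4, Olfr677, Cyp7a1 and Col3a1.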
